A study of Mus musculus with 4 samples.

Results

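The 7 Sox transcription factor genes Sox1, Sox2, Sox3, Sox4, Sox9, Sox11 and Sox12 were followed site by site in GLORI maps of N6-methyladenosine (m6A) from day 6 mouse retinal organoids. Members were the rows of the 4 site tables that carry one of these gene names, 974 distinct positions of 1076788 in the series and of 833043 inside genes. They were grown from an Rx:GFP reporter line, in which GFP reports the retinal regulator Rx, with an FKBP12F36V-HA degron added to the C-terminus of the endogenous Mettl3 gene. METTL3 catalyses most m6A formation on mRNA, and the compound dTAG13 directs proteins that carry this degron to the proteasome. All 4 libraries carry the degron: 2 untreated libraries received no dTAG13 (0 h) and 2 libraries received 125 nM dTAG13 for 8 h. The genotype labels of the 4 samples give 4 different Mettl gene names, while the series design gives Mettl3, so loss of METTL3 itself is taken from the design. The sources used here do not say whether the line is a single clone or whether replicates were separate cultures. The p-values therefore measure only the spread between these libraries, which may be technical.

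SOX proteins bind DNA through an HMG box and bend it, usually together with a partner factor such as a POU or PAX protein. Sox1, Sox2 and Sox3 form the SoxB1 group, which maintains neural progenitors, and Sox2 also maintains pluripotent cells and is needed for retinal progenitors. Sox4, Sox11 and Sox12 form the SoxC group, which acts in progenitors and during neuronal differentiation and includes regulators of retinal ganglion cell formation. Sox9 belongs to the SoxE group and acts in multipotent retinal progenitors and later in Müller glia. m6A on mRNA is read by YTH domain proteins and is known to shorten the life of many transcripts, those of developmental regulators among them.

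In GLORI, unmethylated A is deaminated and read as G, whereas m6A is still read as A. A site's level is the percentage of its A and G reads that are A. The tables list only called sites, with at least 15 reads, 5 A reads, a level of 10% and a low deposited adjusted p. A position missing from a table can be unmethylated, below the read or level limits, not significant to the caller, or uncovered. The libraries listed 335607 and 350462 sites without dTAG13 and 220034 and 263069 with it. Reads summed over listed sites ranged from 30102136 to 54905380, lowest in dTAG13 replicate 1. The retinal progenitor markers Rax, Pax6, Six3, Six6 and Lhx2 had listed sites in all 4 libraries, with a summed gene coverage of 1409 to 2293. All 6 pluripotency markers (Pou5f1, Nanog, Zfp42, Dppa3, Esrrb and Klf4) were also listed in all 4, at a summed coverage of 477 to 665. Neuronal markers were listed for 7 of 8 genes and summed to 289 to 402, with no site for Pou4f2. Pigment epithelium markers were listed for 5 of 6 genes and summed to 354 to 448, with no site for Rpe65. Neural crest markers were listed for 5 of 5 genes, none of them in all 4 libraries, and summed to 275 in untreated replicate 2 and to 63.0 to 86.9 in the others. Endoderm and mesoderm markers were listed for 4 of 6 genes, with T and Mixl1 unlisted, and summed to 221 in untreated replicate 1, 26.0 in untreated replicate 2, 29.3 in dTAG13 replicate 1 and 119.5 in dTAG13 replicate 2. In all 4 libraries, 2 neuronal markers, 4 pigment epithelium markers and 1 endoderm or mesoderm marker were listed. Gene coverage is given only where a gene has a listed site, so an unlisted marker adds nothing to a sum. The sums of these sets can therefore cover different genes in each library, and their differences do not measure cell content. The part of these other cell types in the results was not tested.

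The number of m6A sites listed in the Sox genes differed less between conditions than between replicates. The untreated libraries listed 267 and 313 Sox sites and the dTAG13 libraries 261 and 285. The group means were 290 ± 32.5 and 273 ± 17.0 (SD, n = 2 each), a ratio of 0.941 that did not exceed the spread between replicates (exact two-sided permutation test, p = 0.667; the smallest p of this design is 0.333). Without untreated replicate 2 the ratio was 1.02. Over all sites inside genes the same ratio was 0.714. All 7 Sox genes were among 6118 genes with a mean coverage of at least 100, whose ratio was 0.766, and 3 of them among 1049 genes with a mean coverage of at least 400, whose ratio was 1.02.

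Sox4 and Sox9 were the members with fewer listed sites in both dTAG13 libraries than in either untreated library. Sox4 had 44 and 57 sites without dTAG13 and 39 and 38 with it. Sox9 had 31 and 32 sites without dTAG13 and 29 and 20 with it. Such non-overlap in the direction of fewer sites occurred in 46.4% of the 12449 genes tested. At 2 of 7, the members lay below this share, which is not matched for coverage. The opposite non-overlap, seen in 4.51% of genes, occurred in no member. In the other 5 members the groups overlapped. Sox11, the member with most sites, had 82 and 114 against 90 and 104. Sox12 had 38 and 31 against 27 and 43, and Sox2 had 36 and 24 against 35 and 30. The pair of members with fewest sites were Sox1, with 21 and 31 against 21 and 28, and Sox3, with 15 and 24 against 20 and 22.

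By edgeR's quasi-likelihood test on the number of listed sites, none of the 7 members and none of the 12449 genes passed an adjusted p of 0.05 (0% called). On simulated data this test recovered 0 of 200 8-fold falls in genes of 20 or more sites (negative binomial size 20). It recovered 164 of 200 in genes of 40 or more (size 50). The lack of a call therefore does not show that site numbers were unchanged. Among all genes 2573 had an unadjusted p under 0.05, and DESeq2 called 0 of the 2830 genes to which it gave an adjusted p. The change was a log2 of -0.39 for Sox4 (adjusted p = 0.331) and -0.36 for Sox9 (adjusted p = 0.458). It lay between -0.09 and 0.12 for the other 5, against a median of -0.51 over all genes, which were not matched for coverage. Relative to the library totals of listed sites, which were lower with dTAG13, the change was 0.12 for Sox4, 0.15 for Sox9, 0.42 for Sox1 and 0.49 for Sox11, and 0.52 for Sox12, 0.61 for Sox3 and 0.62 for Sox2. No Sox gene was called with these totals (0.41% of genes called) or with gene coverage (1.08% called) as offset.

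**Figure D1:**
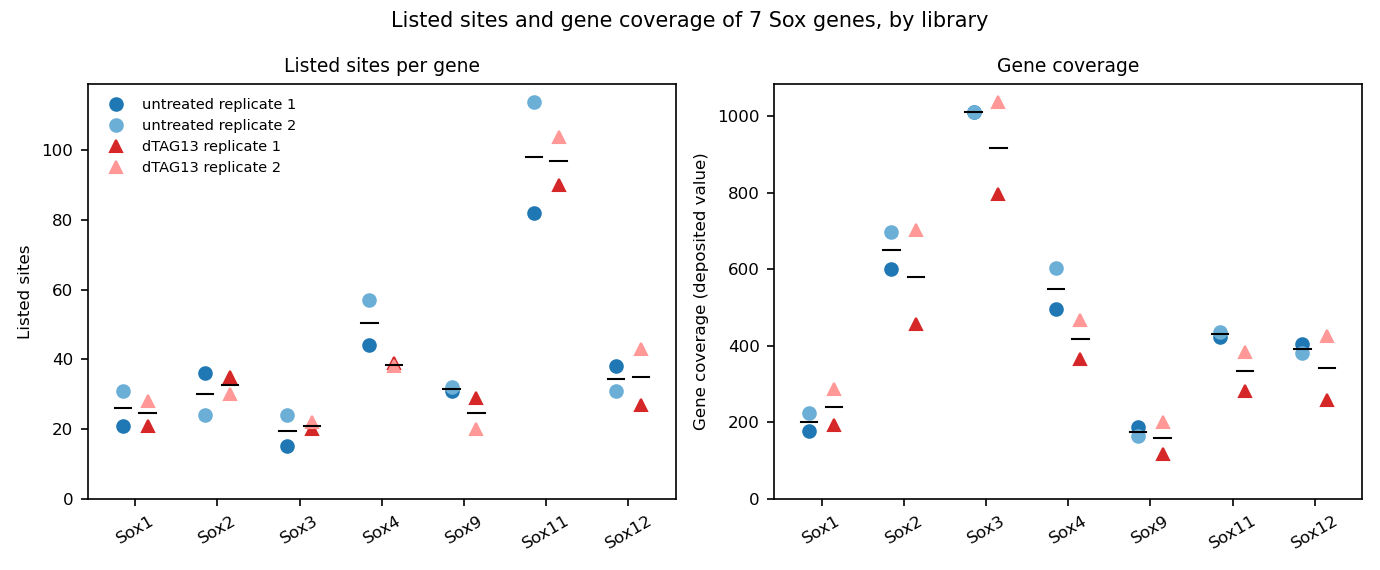
Listed m6A sites (left, number per gene) and deposited gene coverage (right, in the unit of the tables) of the 7 Sox genes in 2 untreated libraries (circles) and 2 dTAG13 libraries (triangles), with bars at the mean of 2 libraries. Sox11 has most listed sites, 82 to 114, and only Sox4 and Sox9 have both dTAG13 libraries below both untreated ones on the left.

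Few positions were found again in a second library. Of the 974 Sox positions, 843 (86.6%) appeared in 1 table, 113 appeared in 2, 15 appeared in 3 and 3 appeared in all 4, while 91.4% of all positions inside genes were listed in 1 library. Of the 245 Sox sites of untreated replicate 1 with at least 50 reads, 37 were listed in untreated replicate 2, which is 15.1% (Wilson 95% interval 11.2 to 20.1%). The share found in a dTAG13 library was 9.80% (6.67 to 14.2%) for replicate 1 and 8.98% (6.00 to 13.2%) for replicate 2. These intervals overlap, and they cover counting error only, since reads without known molecular collapse are not independent molecules. Of such sites of untreated replicate 2, 13.2% were listed in untreated replicate 1 and 10.5% and 8.71% in dTAG13 replicates 1 and 2. For dTAG13 replicate 1 the shares were 11.1% in dTAG13 replicate 2 and 10.2% and 12.4% in untreated replicates 1 and 2. For dTAG13 replicate 2 they were 10.6% in dTAG13 replicate 1 and 8.98% and 10.2% in untreated replicates 1 and 2. The untreated pair shared 39 Sox positions, the dTAG13 pair 28 and the mixed pairs 24 to 33. At shared positions the median difference in level was 5.93 percentage points within the untreated pair and 7.13 within the dTAG13 pair, so single levels varied by this much between libraries of 1 condition. In the mixed pairs the median difference was 4.21 to 6.87 points. Over all sites inside genes the pairs gave 8.28 to 9.67 points.

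The median level of listed Sox sites was 18.7% in untreated replicate 1, 19.9% in untreated replicate 2, 18.3% in dTAG13 replicate 1 and 20.8% in dTAG13 replicate 2, so the groups overlapped. Levels of 90% or more were seen at 20, 10, 17 and 22 Sox sites in untreated replicates 1 and 2 and dTAG13 replicates 1 and 2. Of these 69 values, 57 rested on fewer than 100 reads and 52 on a position listed in 1 library. Sites at 50% or more numbered 33 and 47 without dTAG13 and 42 and 53 with it.

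**Figure D2:**
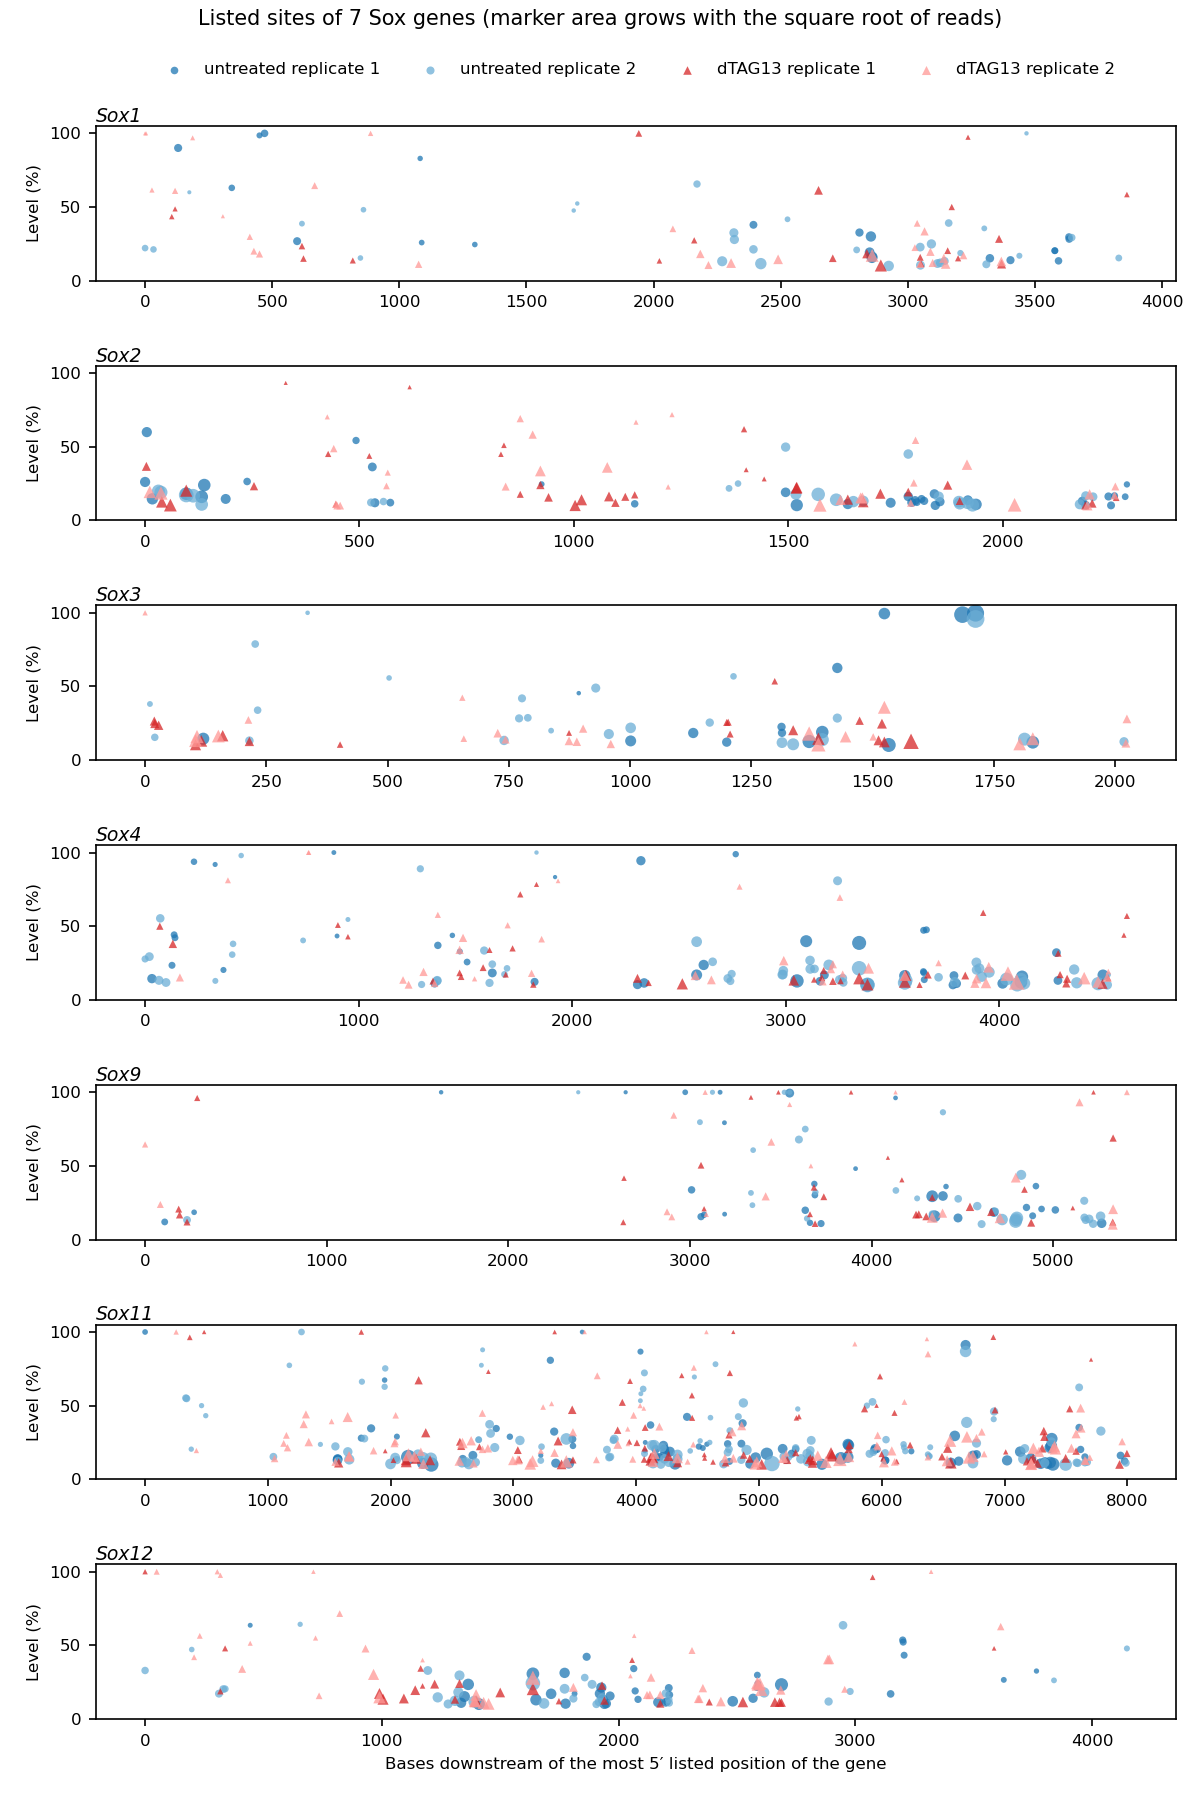
Level of each listed site (%) against its distance in bases from the most 5′ listed position of its gene, for 7 Sox genes, with circles for untreated and triangles for dTAG13 libraries and marker area growing with the square root of reads. Most large markers lie below 50%, and the exceptions at the top right of the Sox3 panel are untreated values of 95.8% to 99.8%.

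Restricting the high sites to deeply read ones separated the groups. Sox sites at 50% or more with at least 200 reads numbered 9 and 8 in the untreated and 2 and 2 in the dTAG13 libraries, a ratio of 0.235 and no overlap (exact two-sided permutation test, p = 0.333, the smallest possible with 2 against 2). As a share of all Sox sites with at least 200 reads, these were 5.56% (Wilson 95% interval 2.95 to 10.2%) of 162 and 4.23% (2.16 to 8.13%) of 189 without dTAG13. With dTAG13 they were 1.75% (0.48 to 6.17%) of 114 and 1.23% (0.34 to 4.39%) of 162, so the intervals overlap. Over all genes the shares were 5.20%, 5.08%, 3.42% and 5.21%, and the ratio of numbers was 0.638. In genes with a mean coverage of at least 100 that ratio was 0.590, and in genes of at least 400 it was 0.427, where the shares were 2.26% and 2.50% in the untreated against 0.79% and 1.28% in the dTAG13 libraries. The lower numbers with dTAG13 were thus shared by other genes of high coverage. The limit of 200 reads was chosen after seeing the data. At 100 reads the Sox numbers were 15, 19, 7 and 12, and at 400 reads 6, 3, 0 and 0, where the all-gene ratio was 0.322.

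**Figure D3:**
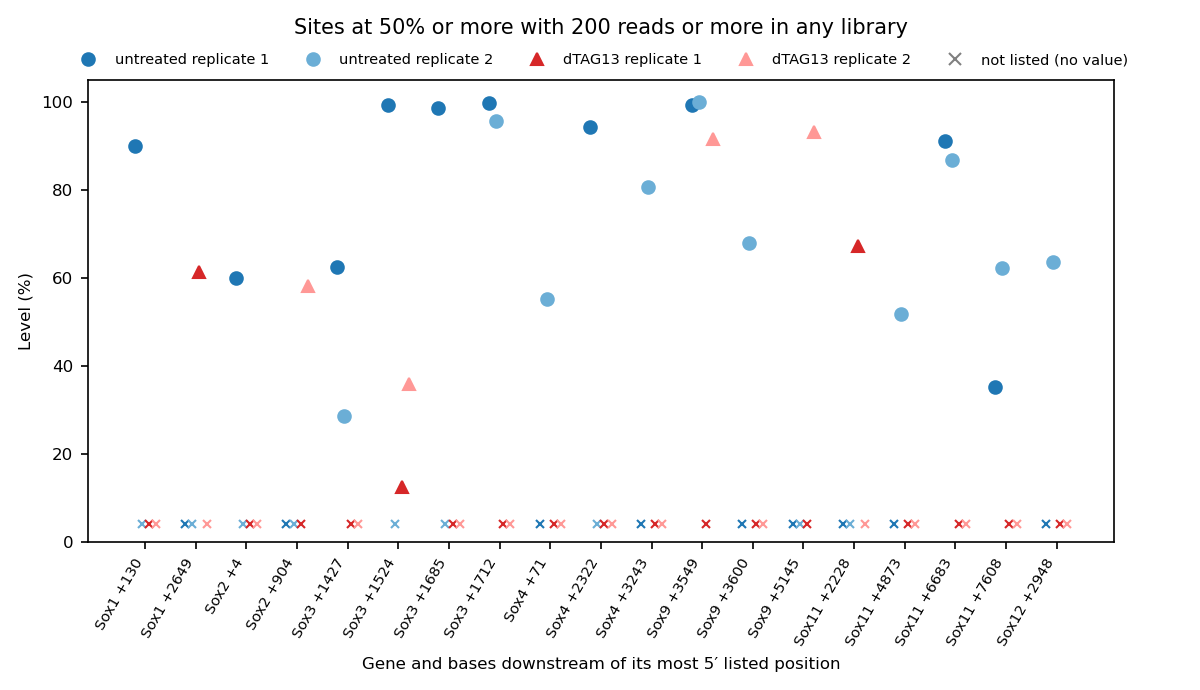
Level (%) at the 19 Sox positions that reached 50% with at least 200 reads in any library, labelled by gene and bases from its most 5′ listed position, with crosses where a library does not list the position (a cross is no value). Of these 19 positions, 4 reached this in a dTAG13 library, none of them in both.

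The SoxB1 gene Sox3 carried the Sox sites with the most reads. Its listed positions span 2024 bases, chrX:59934996-59937020 on the minus strand, and 65 distinct positions were listed. At chrX:59935308, 1712 bases from the most 5′ listed position, the level was 99.8% (4483 reads) in untreated replicate 1 and 95.8% (5247 reads) in untreated replicate 2. Neither dTAG13 library listed the position, so its reads in them are not known. Nearby, dTAG13 replicate 1 listed a site of 2982 reads and 12.8% at 133 bases. The nearby site of dTAG13 replicate 2 had 1508 reads and 14.5% at 118 bases. Reads at a neighbouring site do not give those at the position itself. The site at chrX:59935593 was at 62.6% (609 reads) and 28.5% (375 reads) without dTAG13 and was also unlisted with it.

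Other deep Sox3 sites at high levels in untreated replicate 1 were not listed in untreated replicate 2. Some deep sites at lower levels were listed in both. One was chrX:59935624, at 19.0% (1313 reads) in untreated replicate 1 and 13.9% (1570 reads) in untreated replicate 2. chrX:59935335 was at 98.8% (4063 reads) in untreated replicate 1 alone. Untreated replicate 2 did not list it, although that library had 5247 reads at chrX:59935308, 27 bases away. chrX:59935496 was at 99.5% (958 reads) in untreated replicate 1, unlisted in untreated replicate 2, and at 12.3% (722 reads) and 35.9% (1497 reads) with dTAG13.

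The most read Sox2 site was at a similar, low level in the 3 libraries that listed it. The 108 Sox2 positions span 2290 bases, chr3:34704318-34706608 on the plus strand, where the long noncoding gene Sox2ot overlaps it and is listed too, so reads of both cannot be told apart. Its most read site, chr3:34704414, was at 18.1% (1328 reads) and 17.3% (2514 reads) without dTAG13 and at 20.2% (1189 reads) in dTAG13 replicate 1. It was unlisted in dTAG13 replicate 2. chr3:34706098 was at 16.2% and 45.05% without dTAG13 and 19.2% in dTAG13 replicate 1, on at most 444 reads each, so the untreated replicates differed more from each other than from the dTAG13 library. The Sox2 sites at 50% or more with at least 200 reads were each listed in 1 library, chr3:34704322 at 59.9% (584 reads) in untreated replicate 1 and chr3:34705222 at 58.2% (249 reads) in dTAG13 replicate 2.

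Sox1 had 93 positions over 3862 bases, chr8:12445676-12449538 on the plus strand, where the noncoding gene Sox1ot overlaps it and is also listed. Its most read site, chr8:12448536, was at 16.1% (709 reads) in untreated replicate 1 and 17.1% (1447 reads) in dTAG13 replicate 2. A single Sox1 position was listed in 3 libraries, chr8:12448725, at 22.8% (316 reads) in untreated replicate 2 and at 15.8% (120 reads) and 11.3% (203 reads) with dTAG13. The Wilson intervals of the untreated value and dTAG13 replicate 1 overlap (18.5 to 27.7% and 10.4 to 23.4%), while that of dTAG13 replicate 2 (7.67 to 16.4%) lies below the untreated one.

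Sox11, of the SoxC group, had 343 positions over 7997 bases, chr12:27384630-27392627 on the minus strand. Of these, 217 (63.3%) lay nearer to the 3′ than to the 5′ end of that span. This share was 86.6% in Sox9, 68.8% in Sox1, 60.1% in Sox4, 54.6% in Sox2, 46.2% in Sox3 and 40.9% in Sox12. The highest deep site of Sox11, chr12:27385944, was at 91.2% (555 reads) and 86.8% (930 reads) without dTAG13 and unlisted with it. Both dTAG13 libraries listed sites close by, of 914 reads at 120 bases and of 1238 reads at 28 bases. Their reads at the position itself are not known. chr12:27385019 was at 35.1% (168 reads) and 62.4% (202 reads), and chr12:27390676 at 67.3% (49 reads) and 62.8% (86 reads), without dTAG13 and both were unlisted with it. The most read Sox11 site, chr12:27387521, was at 10.7% (2987 reads) in untreated replicate 2 alone.

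Sox11 also held 7 of the 15 Sox positions listed in 3 libraries, each with a level below 40% wherever it was listed. chr12:27386896 was at 23.1% (785 reads) without dTAG13 and at 20.4% (225 reads) and 15.3% (750 reads) with it. chr12:27385884 was at 16.0% (567 reads) and 11.0% (684 reads) without dTAG13 and at 15.6% (937 reads) with it. chr12:27385855 was at 16.8% (339 reads) and 24.5% (375 reads) without and at 28.0% (254 reads) with dTAG13. The dTAG13 values were thus below, between and above the untreated ones at these 3 positions.

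Sox4 and Sox12, the other SoxC genes, each had 1 site listed in all 4 libraries. In Sox4, with 153 positions over 4598 bases (chr13:29132999-29137597, minus strand), chr13:29134039 was at 16.4% (910 reads) and 11.6% (2042 reads) without dTAG13 and at 12.2% (1042 reads) and 16.5% (704 reads) with it. In Sox12, with 115 positions over 4147 bases (chr2:152235668-152239815, minus strand), chr2:152238177 was at 30.7% (1388 reads) and 24.3% (2408 reads) without dTAG13 and at 20.4% (1232 reads) and 28.0% (2160 reads) with it. In both genes the groups overlapped, and the Wilson intervals of the untreated replicates did not overlap each other. A further Sox4 site, chr13:29134253, was at 38.6% (2073 reads) and 21.4% (2439 reads) without dTAG13 and 14.5% (1060 reads) in dTAG13 replicate 1. The neighbouring chr13:29134214 was at about the same level in the same 3 libraries, 10.2% (1934 reads), 10.1% (2512 reads) and 10.4% (1039 reads). The most read Sox4 site, chr13:29133515, was at 12.2% (3278 reads) in dTAG13 replicate 2 alone.

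Sox9, the SoxE member, had 97 positions over 5406 bases, chr11:112673154-112678560 on the plus strand, and 84 of them (86.6%) lay nearer to the 3′ end of that span. Its site in all 4 libraries, chr11:112677488, was at 29.4% (1020 reads) and 17.5% (126 reads) without dTAG13 and at 28.6% (112 reads) and 15.04% (705 reads) with it. Each condition thus had a library near 29% and a library at or below 17.5%. chr11:112676703 was the only high Sox site of the untreated pair that a dTAG13 library still listed: it was at 99.4% (352 reads) and 100% (38 reads) without dTAG13 and at 91.7% (36 reads) in dTAG13 replicate 2. The untreated replicates disagreed at chr11:112676789, with 19.9% (171 reads) and 75% (112 reads), and at chr11:112677547, with 29.6% (470 reads) and 86.4% (81 reads). The most read Sox9 site, chr11:112677949, was at 13.4% (1452 reads) in untreated replicate 2 alone.

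Sites that both untreated libraries listed were mostly absent from the dTAG13 tables, as in other genes. Of the 39 such Sox positions, 26 (66.7%) were listed in neither dTAG13 library, against 80% of the 25086 such positions in all genes. Of the 8 with a mean untreated level of 40% or more, 7 (87.5%) were in neither, against 85.8% in all genes. Of the 31 below 40%, 19 (61.3%) were in neither, against 76.6%. The members' shares lie near or below the background, which was not matched for read depth. Across the libraries, median reads per listed site ranged from 148 to 275 in the Sox genes. Over all sites inside genes they ranged from 87 to 112. How far this depth accounts for the lower shares was not tested. All these positions were selected on the untreated libraries, and the reverse share, for positions of the dTAG13 pair, was not counted. Most Sox positions were listed in 1 library only, so these shares alone do not measure loss with dTAG13.

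The 3 sites listed in all 4 libraries were the ones whose level could be tested, and none passed the threshold. By a quasi-binomial model of A and G reads with limma's moderated dispersion, fitted over 2321 sites, the difference in level with dTAG13 was -3.32 percentage points for Sox12 (adjusted p = 0.964) and 0.34 for Sox4 (adjusted p = 0.969). For Sox9 it was -1.63 points (adjusted p = 0.584). Of all sites tested, 53 were called (2.28%), 51 lower and 2 higher, and with any 1 library left out no site was called. Summed per gene over tested sites, the same 3 values stood alone for their genes and were not called, among 46 of 1016 genes called (4.53%). With replicates pooled, Fisher's exact test called the Sox9 site, at -11.2 points, among 22.9% of all sites, and it is the site at which each condition held a high and a low library.

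The unconverted share of each gene, the percentage of A still read as A according to the deposited per-gene conversion rate, was lower with dTAG13 in all 7 Sox genes with no overlap between groups. This happened in 40.9% of the 12520 genes listed in all 4 libraries and in 45.2% of those with a mean coverage of at least 100, while the opposite occurred in no member and in 6.05% of genes. Sox3 had 7.99% and 7.45% without dTAG13 and 3.88% and 4.32% with it, means of 7.72% ± 0.376 and 4.10% ± 0.308 (SD, n = 2 each). Sox4 had 5.55% and 3.60% without and 2.01% and 2.05% with dTAG13. Sox1 had 5.69% and 4.94% without and 2.96% and 1.99% with it. In these 3 genes the dTAG13 mean was 0.443 to 0.531 of the untreated mean.

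The other 4 members differed less. Sox11 had 4.18% and 3.56% without dTAG13 and 2.695% and 2.82% with it. Sox9 had 3.73% and 3.79% against 2.82% and 2.71%, and Sox2 had 4.265% and 4.54% against 3.29% and 3.60%. Sox12 had 6.53% and 5.12% against 3.998% and 5.05%, so its nearest libraries of opposite groups almost touched. The median over all genes moved the same way, from 4.15% and 3.78% without dTAG13 to 3.13% and 3.26% with it, and whether this came from methylation or from more complete conversion was not tested.

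**Figure D4:**
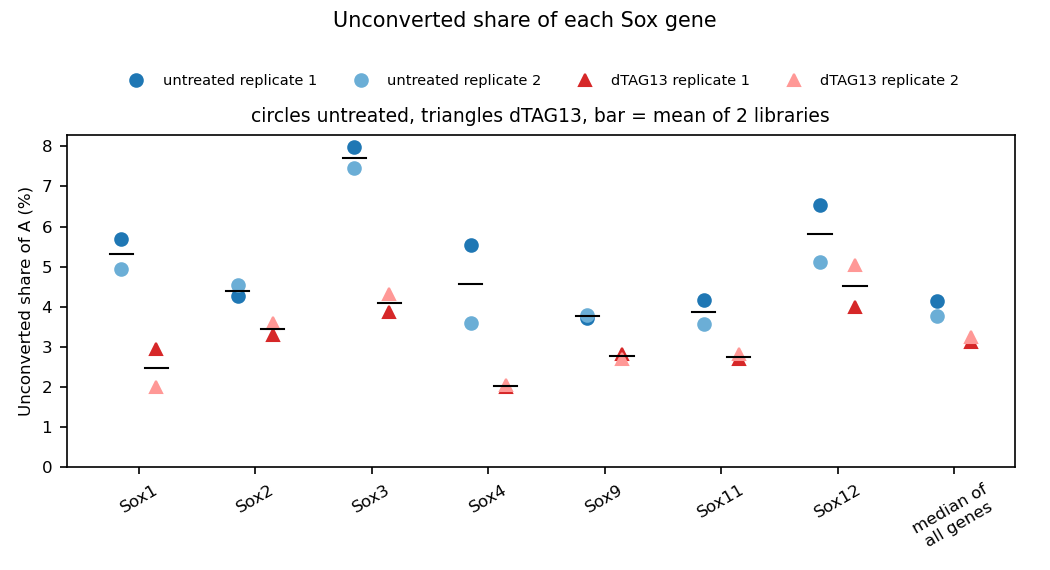
Unconverted share of A (%) of each Sox gene and the median over 12520 genes in 2 untreated (circles) and 2 dTAG13 libraries (triangles), with bars at the mean of 2 libraries. The dTAG13 values lie below both untreated values in all 7 Sox genes, and so does the all-gene median.

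By limma on the log2 odds of the unconverted share, the change with dTAG13 was -1.18 ± 0.33 (SE) for Sox4, -1.17 ± 0.33 for Sox1 and -0.97 ± 0.27 for Sox3. Their unadjusted p was 0.0158, 0.0153 and 0.0150 and their adjusted p 0.369 each, so they did not pass (limma, Benjamini-Hochberg adjustment). The other 4 members lay between -0.50 and -0.37, with adjusted p of 0.498 to 0.621 (limma). No gene of 12520 was called (0%), and 1540 had an unadjusted p under 0.05. The median change was -0.50 over the 7 Sox genes and -0.30 over all genes, of which 76.7% were lower. With each library centred on the median gene, the Sox median was -0.18. The centred change was -0.86 for Sox4, -0.85 for Sox1 and -0.65 for Sox3. It was much smaller for Sox11 (-0.18), Sox9 (-0.14), Sox12 (-0.06) and Sox2 (-0.05), so these 4 differed little from the median gene. Leaving out a library moved the uncentred change of Sox4 between -1.51 and -0.85, that of Sox1 between -1.46 and -0.88 and that of Sox12 between -0.57 and -0.20.

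Gene coverage, the deposited read coverage of a gene, passed the test in no Sox gene. It is not normalised to depth and its scale is not stated, so for the Sox genes it was compared between libraries for 1 gene at a time. Sox4 had 495 and 603 without dTAG13 and 366 and 468 with it, and Sox11 had 423 and 437 without and 282 and 385 with it. In both genes the dTAG13 libraries were lower as deposited, as in 28.1% of genes. Sox1 had 176 and 223 without dTAG13 and 194 and 286 with it. Sox2 had 601 and 698 against 458 and 702, and Sox3 had 1012 and 1012 against 798 and 1038. Sox9 had 186 and 163 against 116 and 199.8, and Sox12 had 403 and 382 against 259 and 424. In these 5 genes the groups overlapped, with dTAG13 replicate 1 lower than replicate 2 in each.

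After each library was centred on its median gene, both dTAG13 values were below both untreated values for Sox3, Sox4 and Sox11, as in 29.2% of genes, and above them for Sox1, as in 17% of genes. By limma on centred log2 coverage the change was -0.32 ± 0.21 (SE) for Sox4 (adjusted p = 0.531), -0.30 ± 0.19 for Sox11 (adjusted p = 0.531) and 0.33 ± 0.22 for Sox1 (adjusted p = 0.536). The other 4 lay between -0.16 and -0.07. None of the 12520 genes was called (0%), and 1595 had an unadjusted p under 0.05.

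Relatives and partners of the 7 genes gave no call either. In the main tests of coverage and unconverted share 0% of 12520 genes were called, and for listed sites 0% of 12449. The lack of a call is therefore not particular to these lists. Of 12 other Sox genes, 5 were listed in all 4 libraries (Sox5, Sox6, Sox13, Sox17 and Sox21), and none was called for coverage, unconverted share or listed sites in either direction. Their median log2 change in listed sites was -0.49, near the all-gene median, whereas that of the 7 members was -0.01. The lists were not matched for coverage, and all genes with a mean coverage of at least 400 had a ratio of listed sites of 1.02. Among the 5 other Sox genes the median log2 odds change of the unconverted share was -0.14. The change was below 0 in 3 of 5, against a median of -0.30 and 76.7% below 0 over all genes. It ranged from 0.50 for Sox6 and 0.29 for Sox5 to the lowest value, that of Sox21. Sox21, a SoxB2 gene that opposes SoxB1 factors, had a log2 odds change of -1.19 ± 0.42 (SE) in the unconverted share (limma, adjusted p = 0.393). Of 29 partner and progenitor genes, 24 were tested and none was called in either direction. Their median change in the unconverted share was -0.45, with 23 of 24 below 0, against 76.7% of all genes. The eye field regulator Rax had -1.14 ± 0.28 (limma, adjusted p = 0.369), and Pax6, a partner of SOX2 in the eye, had -0.21 ± 0.27 (limma, adjusted p = 0.758).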

How the data were processed

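The authors deposited 1 table of called sites per library, with read counts (A and G reads, A reads), the fraction of A among them, the conversion rate of the gene as a fraction, a coverage signal per gene and p-values, per the file headers. At 100% of sites the fraction equalled A reads over A and G reads within 1e-05. The submitters' processing notes list the build mm10, but none of the 974 Sox positions fell inside the GRCm38 interval of its gene, so the build is not settled, positions are as listed, and exon, UTR and sequence context were not assigned; aligner and caller are not given in the sources used here. Groups came from sample titles. Site and gene levels were tested with a quasi-binomial model (R 4.3.3, limma 3.58.1; at least 20 reads in each library), coverage and unconverted share with limma, and listed sites with edgeR 4.0.16 (at least 10 sites in all), with DESeq2 1.42.0 as an alternative; p-values were adjusted over all features at 0.05. Scripts were tested on simulated data. Of 200 sites changed by 40 points, 123 were recovered, with 11 false calls. Of 200 genes changed in coverage by a log2 of 2, 199 were recovered, with 13 false calls. Of 200 changed in unconverted share by a log2 of 2, 195 were recovered, with 8 false calls. Recovery at a larger spread between libraries was not tested for these measures. For listed sites, 0 of 200 8-fold falls were recovered in genes of 20 or more sites at a negative binomial size of 20, and 164 of 200 in genes of 40 or more at a size of 50. Libraries of the same replicate number shared no deviation (correlation 0.002 for log2 gene coverage and 0.008 for log odds of conversion). The main tests therefore used no pairing, although this cannot exclude a weak one. Named sites were those listed in all 4 libraries, those of the untreated pair at a mean of 40% or more, and the most read site per gene; other sites were chosen after their values were seen. The members and lists were chosen with earlier results of these data known. Some items of these lists are not reported here.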

Additional observations from a re-analysis of the deposited data

How the results depend on the processing

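Of the single values for the Sox genes and sites, 28 turned direction under an alternative, 21 of these when a library was left out; many other alternatives leave a value identical by construction and say nothing of its stability. The change in unconverted share turned under none, but its size moved when a library was left out. Fisher's exact test on pooled reads raised the calls from 53 to 531 sites and from 46 to 428 genes, 1 Sox site (Sox9, -11.2 points, adjusted p = 7.07e-08) and 1 Sox gene among them. With the replicate block there were 0 calls at site and gene level. Without each library in turn there were 0 site calls and 0 to 5 gene calls. Coverage gave 15 calls with no centring, where the median of all genes was -0.15 in place of -0.07. Listed sites gave 51 calls with library totals as offset and 128 with gene coverage as offset, no Sox gene among either. Under these offsets the log2 change of listed sites turned to 0.42 for Sox1, 0.12 and 0.022 for Sox4, 0.15 for Sox9, and 0.49 and 0.37 for Sox11; under stricter calling (20%, 30 reads) it turned to -0.34 for Sox3. The ratio of summed Sox sites turned to 1.19 for sites at 50% or more, 1.34 as a share of all listed sites and 1.02 without untreated replicate 2; leaving out each library in turn gave 0.872 to 1.02. Leaving out a library gave -8.40 to 5.14 points for the Sox9 site and gene, -2.04 to 2.73 for Sox4 and -7.14 to 0.50 for Sox12. It gave log2 coverage changes of -0.29 to 0.064 for Sox9, -0.43 to -0.21 for Sox4 and 0.19 to 0.47 for Sox1, and listed site changes of -0.56 to -0.19 for Sox4, -0.65 to -0.12 for Sox9, -0.34 to 0.22 for Sox1, -0.15 to 0.44 for Sox2, -0.19 to 0.48 for Sox3, -0.23 to 0.24 for Sox11 and -0.35 to 0.32 for Sox12. The cause was not tested. Having 2 libraries a group and the listing limits bound what could be seen: a level was testable at 3 of 974 Sox positions.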
